A study of Bos taurus with 56 samples.

Results

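Accessible chromatin of the cattle (Bos taurus) morula was compared with that of the blastocyst, using every peak of the 2 merged ATAC-seq peak lists of these stages that carry no in vivo label. In ATAC-seq a transposase cuts DNA that is not tightly packed, and a peak marks a stretch where cuts pile up. There were 88858 morula and 3397 blastocyst peaks, together 92255 of the 673059 peaks in the 11 lists of the study. A peak was called shared when 1 bp or more of it lay in a peak of the opposite list, and the others were called morula only or blastocyst only. By that rule 1115 blastocyst peaks and 1000 morula peaks were shared, 2282 peaks were blastocyst only and 87858 were morula only.

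The study covers oocytes and embryos from the germinal vesicle (GV) stage to day 14, and its 56 libraries fall into 11 groups. Embryos of a stage were pooled for sequencing. The morula list came from 6 libraries and the blastocyst list from 3. The labels of both groups name the developmental stage alone: they say nothing of breed, sex, age or the way the embryos were produced. The comparison lists used below came from GV (6 libraries) and MII (5) oocytes, 2-cell (6), 4-cell (6), 8-cell (5) and 16-cell (5) embryos, morulae derived in vivo (4), blastocysts derived in vivo (4) and day 14 elongating embryos (6).

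The morula is the compacted ball of cells that precedes the first visible split of embryonic lineages. In the blastocyst an outer epithelium, the trophectoderm, encloses a fluid-filled cavity and the inner cell mass, from which the embryo proper arises. In cattle the blastocyst does not implant at once, and the trophectoderm elongates into a long filament before attachment, the stage sampled at day 14. Open chromatin at these stages marks promoters, enhancers and other regulatory DNA. The lists hold positions and no gene names, and no annotation of their genome build (UMD3.1) was used, so neither the labelled stage nor any peak could be checked against marker genes.

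Each list joins the peaks of several libraries, and it holds no read counts or scores. The spread between replicates cannot be had from such lists, depth was unknown, and no test between the stages was possible. Intervals are 95% exact binomial (Clopper-Pearson) intervals, which cover counting error only and treat neighbouring peaks as independent. The shares and differences are descriptions of single lists.

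Blastocyst peaks that the morula had too were on the median wider than those it lacked. Of the blastocyst peaks, 32.8% (interval 31.2% to 34.4%) were shared. When 50% of both peaks had to overlap the share was 17.6%, and against the widest 3397 morula peaks alone, as many as the blastocyst list holds, it was 3.71%. The median width of shared blastocyst peaks was 419 bp, with quartiles of 245 and 717 bp, against 198 bp with quartiles of 165 and 266 bp for blastocyst only peaks, a ratio of 2.12. Shared peaks held 55.1% of the bases covered by the blastocyst list. Among shared peaks 172 (15.4%) were at least 1000 bp wide, and among blastocyst only peaks 14 (0.613%). In the other direction, 1156 blastocyst only peaks (50.7%) and 162 shared peaks (14.5%) were narrower than 200 bp. The lower bound of width differed between the lists, at 161 bp in the morula and 137 bp in the blastocyst, and 540 blastocyst peaks were narrower than any morula peak.

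The share found in the morula was flat over the narrow blastocyst peaks and went up with width above them. In the narrowest decile, with peaks of 137 to 151 bp, 38 of 317 peaks (12.0%) were shared, and in the widest, from 697 bp upward, 294 of 340 (86.5%). The first 4 deciles lay between 11.04% and 13.3% with overlapping intervals, and the share then went up from decile to decile.

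Width separated the classes far less in the morula list. Shared morula peaks had a median width of 592 bp and morula only peaks one of 525 bp, a ratio of 1.13. Peaks of at least 1000 bp made up 22.9% of the former and 21.8% of the latter. The share with a blastocyst peak was 1.13% (interval 1.06% to 1.20%) over the list, and by decile of width it ran from 0.629% to 1.64% without a steady order: the narrowest decile (1.60%) and the widest (1.59%) were near each other.

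**Figure D1:**
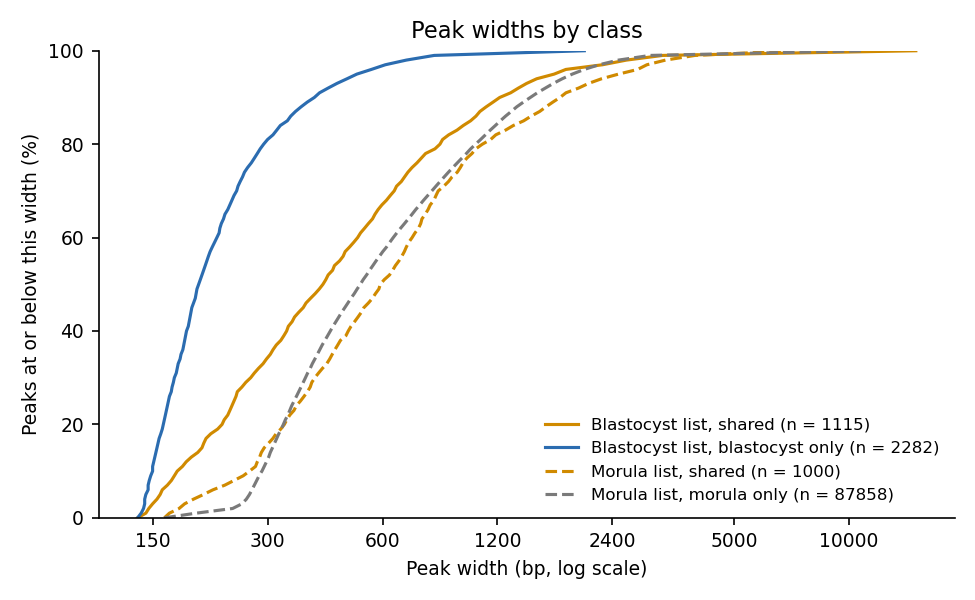
Cumulative share of peaks (vertical axis, percent) by peak width in bp (horizontal axis, log scale) for the 4 classes, with solid lines for the blastocyst list and dashed lines for the morula list. Blastocyst only peaks lie to the left of the other classes, with a median of 198 bp, and the classes of the morula list lie close together, with medians of 592 and 525 bp.

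Where the stages shared a region, the blastocyst peak was usually the narrower one and often lay inside the morula peak. The shared peaks formed 1146 overlapping pairs. The blastocyst peak was narrower in 755 of them (65.9%) and lay wholly within the morula peak in 481 (42.0%), whereas the morula peak lay wholly within the blastocyst peak in 263 (22.9%). The median overlap was 330 bp, and the centres were a median of 111 bp apart. As separate medians over the pairs, the overlap covered 96.2% of the blastocyst peak and 67.1% of the morula peak. In some places several blastocyst peaks sat on 1 morula peak: 120 morula peaks held 2 or more, up to 5, and 25 blastocyst peaks spanned 2 or more morula peaks. The bases open in both lists came to 0.576 Mb, which was 45.8% of the blastocyst bases and 0.877% of the morula bases.

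Few peaks sat near the limit that defined the classes. The smallest overlap was 10 bp, and 16 pairs overlapped by less than 50 bp. On the other side, 13 unshared blastocyst peaks lay within 50 bp of a morula peak, the nearest 8 bp away, and 69 of the 2282 (3.02%) within 250 bp. At larger distances 305 (13.4%) had a morula peak within 1000 bp and 1102 (48.3%) within 10000 bp, with a median distance of 10727 bp.

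A region is called open in a stage below where that list has a peak. Regions open in both the morula and the blastocyst were open at day 14 in a higher share than regions open in 1 of them. Of all blastocyst peaks 59.1% had a day 14 peak, and of all morula peaks 45.8%. Among shared blastocyst peaks 1045 of 1115 had one, 93.7% (interval 92.1% to 95.1%). Among blastocyst only peaks 964 of 2282 had one, 42.2% (interval 40.2% to 44.3%). In the morula list the shares were 94.8% (948 of 1000, interval 93.2% to 96.1%) for shared peaks and 45.2% (39740 of 87858, interval 44.9% to 45.6%) for morula only peaks. Shared peaks were above unshared ones on each of the 30 chromosomes in both lists. The day 14 list covered 4.66% of the 2661 Mb spanned by all lists.

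Part of this gap went with width in the blastocyst list, and little of it in the morula list. Blastocyst only peaks went from 24.7% at day 14 in the narrowest decile to 84.8% in the widest, where shared peaks stood at 81.6% and 99.3%. Weighting blastocyst only peaks to the widths of shared ones brought their share to 63.6%, so the difference of 51.5 percentage points became 30.1. Morula only peaks went from 28.5% in the narrowest decile to 76.1% in the widest, and shared morula peaks lay between 86.5% and 100% in all 10 deciles. At the widths of shared peaks the share of morula only peaks was 47.3%, and the difference of 49.6 percentage points became 47.5. With sharing counted against the widest 3397 morula peaks alone, the difference from unshared peaks was 35.0 percentage points in the blastocyst list and 18.2 in that shortened morula list.

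**Figure D2:**
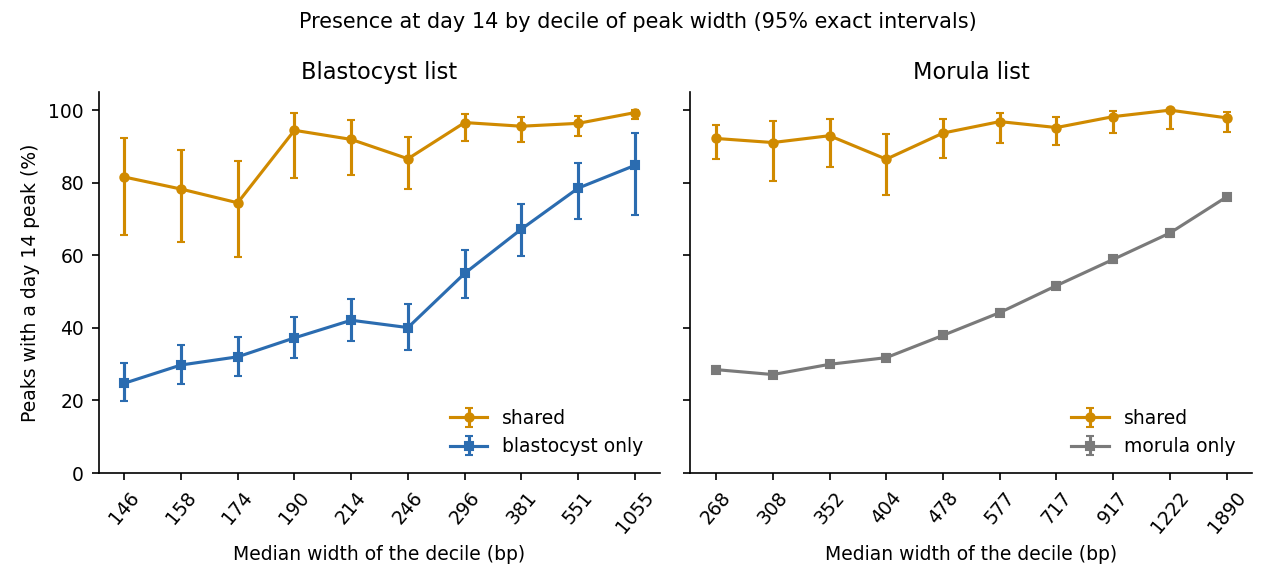
Share of peaks with a day 14 peak (vertical axis, percent, with 95% exact intervals) by decile of peak width (horizontal axis, labelled by the median width of the decile in bp), for the blastocyst list on the left and the morula list on the right. Shared peaks lie above unshared peaks in every decile of both lists, and unshared peaks reach 84.8% and 76.1% in the widest deciles, from 24.7% and 28.5% in the narrowest.

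Shared regions recurred in earlier lists more often than unshared ones, though most were in neither oocyte list. Of the shared blastocyst peaks 426 (38.2%) had a peak in the GV or MII list, against 100 (4.38%) of the blastocyst only and 1143 (1.30%) of the morula only peaks. The GV list, with 4382 peaks, held 34.4% of shared blastocyst peaks, the MII list, with 730, held 15.3%, and the 2-cell list, with 2636, held 51.7%. From there the share was 59.4% in the 4-cell, 68.3% in the 8-cell and 70.5% in the 16-cell list. Part of the gap went with width. Weighted to the widths of shared peaks, blastocyst only peaks stood at 7.13% in the GV and 1.90% in the MII list. The weighted shares were 17.8% in the 2-cell, 22.8% in the 4-cell, 29.4% in the 8-cell and 21.0% in the 16-cell list. Of the shared blastocyst peaks 555 (49.8%) were in 6 or more of the 9 remaining lists, and 10.1% were in all 9. For blastocyst only peaks the share in 6 or more lists was 1.49%, and for morula only peaks 0.228%.

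Blastocyst only peaks had little company elsewhere. In 1178 of 2282 cases (51.6%, interval 49.5% to 53.7%) no other list had a peak there, and these had a median width of 182.5 bp. A further 455 (19.9%) were found at day 14 and nowhere else. Among the earlier stages the 8-cell list held the most, 298 (13.1%), ahead of the 4-cell (9.38%), 16-cell (7.89%) and 2-cell (6.66%) lists. The order did not follow list length, since the 16-cell list has 75925 peaks and the 8-cell list 59186. The interval of the 8-cell share was 11.7% to 14.5% and that of the 16-cell share 6.81% to 9.07%. Both are shares of the same 2282 peaks, so these intervals do not measure their difference, which was not tested.

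Among the stages before the morula, morula only peaks recurred mostly at the 8-cell and 16-cell stages. The 8-cell or 16-cell list held 36998 of them (42.1%), and these were wider (median 830 bp) than the 50860 found in neither (414 bp). At day 14 the former stood at 60.5% and the latter at 34.1%. In 27704 cases (31.5%) no other list had a peak. The short lists held few of them: 1.26% were in the GV, 0.423% in the 2-cell and 1.62% in the 4-cell list.

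**Figure D3:**
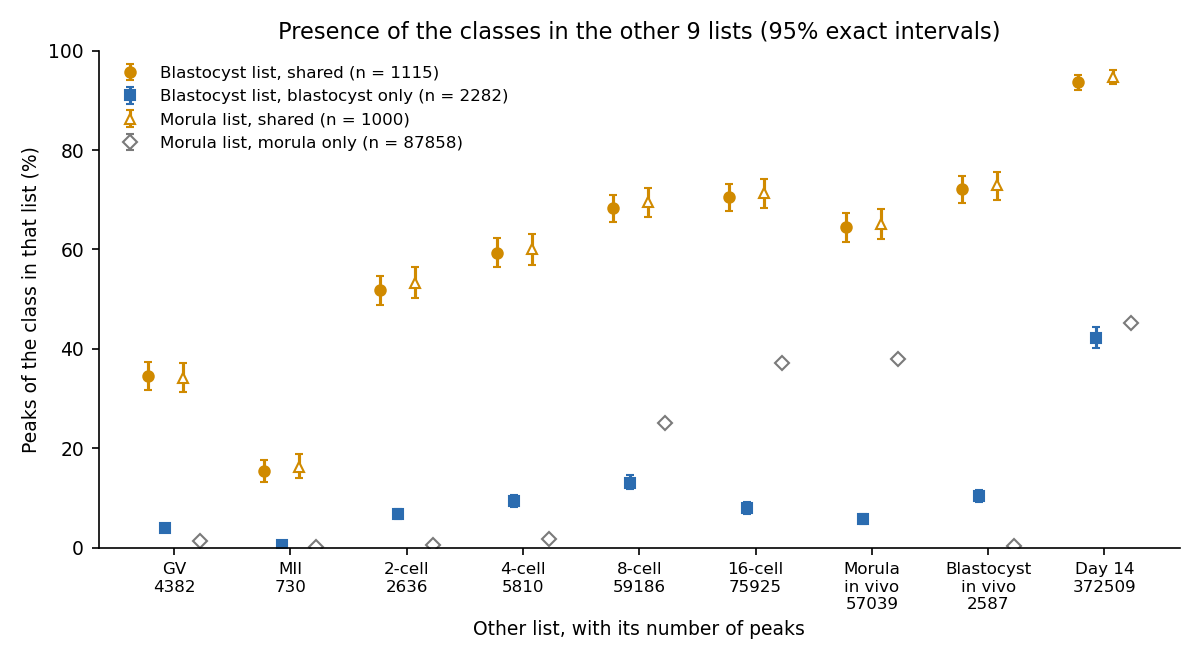
Share of each class (vertical axis, percent, with 95% exact intervals) that has a peak in each of the other 9 lists (horizontal axis, with the number of peaks in that list), filled symbols for the blastocyst list and open symbols for the morula list. Both shared classes lie above both unshared classes in every list, and at day 14 they reach 93.7% and 94.8% against 42.2% and 45.2%.

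The lists derived in vivo come from other embryos of the same stages and gave the same classes a comparison outside the pair. The in vivo blastocyst list held 804 of the shared blastocyst peaks (72.1%) and 235 of the blastocyst only peaks (10.3%, interval 9.08% to 11.6%). At the widths of shared peaks the second share was 26.8%. Of those 235 peaks, 171 were absent from the in vivo morula list as well, so that 7.49% of blastocyst only peaks were open in both blastocyst lists and in neither morula list. These 171 had a median width of 306 bp, and 87.7% (interval 81.8% to 92.2%) had a day 14 peak. By contrast, 131 blastocyst only peaks (5.74%) were open in the in vivo morula list, and 1980 (86.8%) were in neither in vivo list, of which 35.5% had a day 14 peak.

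Morula only peaks recurred in vivo in a higher share, but the list searched was far longer, with 57039 peaks against 2587 for the in vivo blastocyst. The in vivo morula list held 33393 of the morula only peaks (38.0%), or 40.9% at the widths of shared morula peaks. Of these 33393 peaks, 33179 were absent from the in vivo blastocyst list too. Those 33179 had a median width of 951 bp and a day 14 share of 67.2%, against 410 bp and 31.7% for the 54380 in neither in vivo list. Only 299 morula only peaks (0.340%) were open in the in vivo blastocyst list, which has 2587 peaks. Shared morula peaks were found in the in vivo morula list in 65.2% of cases.

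Setting the 2 in vivo lists against each other gave a similar share of blastocyst peaks with a morula peak. The day 14 share of unshared blastocyst peaks was lower in vivo. Of in vivo blastocyst peaks 34.1% had an in vivo morula peak, and the morula list was 22.0 times as long as the blastocyst list, against 26.2 times without the label. Median widths were 647 bp for the 882 shared and 348 bp for the 1705 unshared in vivo blastocyst peaks. At day 14 the in vivo blastocyst peaks stood at 88.7% (shared) and 25.2% (unshared), and the in vivo morula peaks at 88.8% and 49.4%. Without the label the blastocyst shares were 93.7% and 42.2%, and the morula shares 94.8% and 45.2%. The difference between these pairs of lists was not tested.

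The widest shared regions were long domains present in most stages. The widest of them, a blastocyst peak on chromosome 17 from 25029576 to 25044531 (UMD3.1, 14956 bp), was 1 unbroken peak in the blastocyst and 5 peaks of 192 to 7144 bp in the morula. The next, on chromosome 17 from 50909609 to 50915512 (5904 bp), matched 1 morula peak from 50909625 to 50915636 (6012 bp). Every one of the 9 lists of embryos had a peak in both regions, and the GV and MII lists had none. The third, on chromosome 29 from 30260332 to 30266193 (5862 bp), overlapped 2 morula peaks of 3726 and 2423 bp and was open in all 11 lists.

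Blastocyst only regions were shorter, and the widest were not unique to the blastocyst. The widest lay on chromosome 1 from 145440679 to 145442704 (2026 bp), 2423 bp from the nearest morula peak, and was also open in the 8-cell, in vivo morula and day 14 lists. The second, on chromosome 14 from 133553 to 135394 (1842 bp), was open in 7 of the 9 remaining lists, and a morula peak lay 1616 bp away. The third, on chromosome 17 from 292465 to 294183 (1719 bp), recurred among in vivo blastocysts, 4-cell embryos and day 14 embryos. It was also the widest of the 171 peaks open in both blastocyst lists and in neither morula list. The next of those lay on chromosome 7 from 56599272 to 56600898 (1627 bp), with peaks in the 8-cell and day 14 lists, and on chromosome 1 from 145376036 to 145377492 (1457 bp), where peaks were also listed at day 14 and from the 4-cell to the 16-cell stage. The last had a morula peak 350 bp away.

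Morula only regions reached much greater widths. The widest, on chromosome 11 from 49963246 to 49974292 (11047 bp), and the third, on chromosome 12 from 58059871 to 58069049 (9179 bp), were open in both morula lists and in the 8-cell and 16-cell lists, while neither blastocyst list had a peak there. The former was open at day 14 and the latter was not. Next to them under the in vivo rule came a region on chromosome 8 from 98845325 to 98854490 (9166 bp), open in the same 4 lists and at day 14, with the nearest blastocyst peak 925067 bp away. The second widest, on chromosome 10 from 42662704 to 42672464 (9761 bp), was open in the in vivo blastocyst list.

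Few shared regions lacked a day 14 peak, since 1045 of the 1115 shared blastocyst peaks had one. Those named here are the widest without. The first lay near the start of chromosome 15, from 3637 to 4997 (1361 bp), and was open in the 2-cell, 4-cell and 8-cell lists too. The second, on chromosome 8 from 45470680 to 45471831 (1152 bp), lay within a morula peak of 1658 bp and was open in all embryo lists but day 14. The third, on chromosome 2 from 146387 to 146929 (543 bp), lay within a morula peak of 2295 bp and was open from the GV oocyte through both blastocyst lists, with the MII and day 14 lists as exceptions.

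Blastocyst peaks were concentrated in a few places along the genome, and morula peaks were spread far more evenly. The genome was divided into 2678 windows of 1 Mb. Every window held a morula peak, with a median of 30, whereas 1026 windows (38.3%) held a blastocyst peak, with a median of 1 per occupied window. The 10 fullest windows, chosen for their number of blastocyst peaks, held 861 blastocyst peaks (25.3%), and the 10 fullest of the morula list held 1089 morula peaks (1.23%). The next 10 windows of the blastocyst list held 8.15% of all its peaks. Over the whole lists, neighbouring peaks lay a median of 13406 bp apart in the blastocyst and 11659 bp apart in the morula. The lower quartiles of spacing were 1687 and 3080 bp. Inside their 10 windows blastocyst peaks had a median spacing of 1706.5 bp, and outside 141970 bp. Inside its own 10 windows the morula list had a median spacing of 3970.5 bp, and outside 11839 bp. Closer spacing inside follows from choosing the windows by their number of peaks.

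The same 10 windows, 0.376% of the genome span, held 609 morula peaks (0.685% of that list). Of these 323 (53.0%) were shared, against 0.767% of morula peaks elsewhere, and since the windows were chosen for holding the most blastocyst peaks this is a description of the choice. The other long lists had similar shares there, 0.867% for the 8-cell, 0.734% for the 16-cell and 0.558% for the day 14 list. The short lists had more: 14.7% of in vivo blastocyst, 11.9% of 2-cell, 11.2% of MII, 6.04% of 4-cell and 3.49% of GV peaks. None of the 1089 peaks in the 10 fullest morula windows was shared, and the blastocyst list held no peak at all in those windows.

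Within the 10 blastocyst windows the mix of classes varied widely. The fullest, on chromosome 27 between 28 and 29 Mb, had 145 peaks of which 12 (8.28%, interval 4.35% to 14.0%) were shared. On chromosome 8 between 74 and 75 Mb the count was 15 of 110 (13.6%, interval 7.84% to 21.5%). On chromosome 6 between 6 and 7 Mb, by contrast, 36 of 40 (90.0%, interval 76.3% to 97.2%) were shared, and on chromosome 17 between 50 and 51 Mb 31 of 43 (72.1%, interval 56.3% to 84.7%). The chromosome 27 window held 45 morula peaks and the chromosome 8 window 60, or 1.35 and 1.80 times the mean density of the morula list.

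Both windows with few shared peaks had lower shares in vivo and at day 14 than the other 8. In the chromosome 27 window 22 of 145 blastocyst peaks (15.2%) recurred in the in vivo blastocyst list and 52.4% had a day 14 peak, and in the chromosome 8 window 14 of 110 (12.7%) recurred in vivo and 49.1% had a day 14 peak. These day 14 shares were near the 53.0% of blastocyst peaks outside the 10 windows. Their blastocyst only peaks stood at 48.9% and 42.1%, against 36.5% of blastocyst only peaks outside. Both chromosome 17 windows reached 80.0% and 81.4% in vivo, with 97.1% and 100% at day 14, and none of their blastocyst peaks was in an oocyte list. The chromosome 6 window likewise had 80.0% in vivo and 100% at day 14, but 62.5% of its peaks were in an oocyte list.

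Clusters also differed in how tightly they were packed. The 42 peaks on chromosome 7 between 56 and 57 Mb lay within 53.9 kb, from 56568969 to 56622834, with a median spacing of 1024 bp, and 14 of them (33.3%) were shared. The 120 peaks on chromosome 1 between 145 and 146 Mb lay within 159 kb, from 145293604 to 145452528, with a median spacing of 1170 bp and a median width of 495.5 bp, and 42 (35.0%) were shared. That window was also dense at day 14, with 648 peaks or 4.63 times the mean of the day 14 list. On chromosome 29 between 30 and 31 Mb 52 of 116 peaks (44.8%) were shared, and the middle 80% of the peaks lay within 124 kb. The 129 peaks in the first Mb of chromosome 14 were spread over 987 kb, with 87 (67.4%) shared, 52.7% in an oocyte list and 96.1% at day 14.

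**Figure D4:**
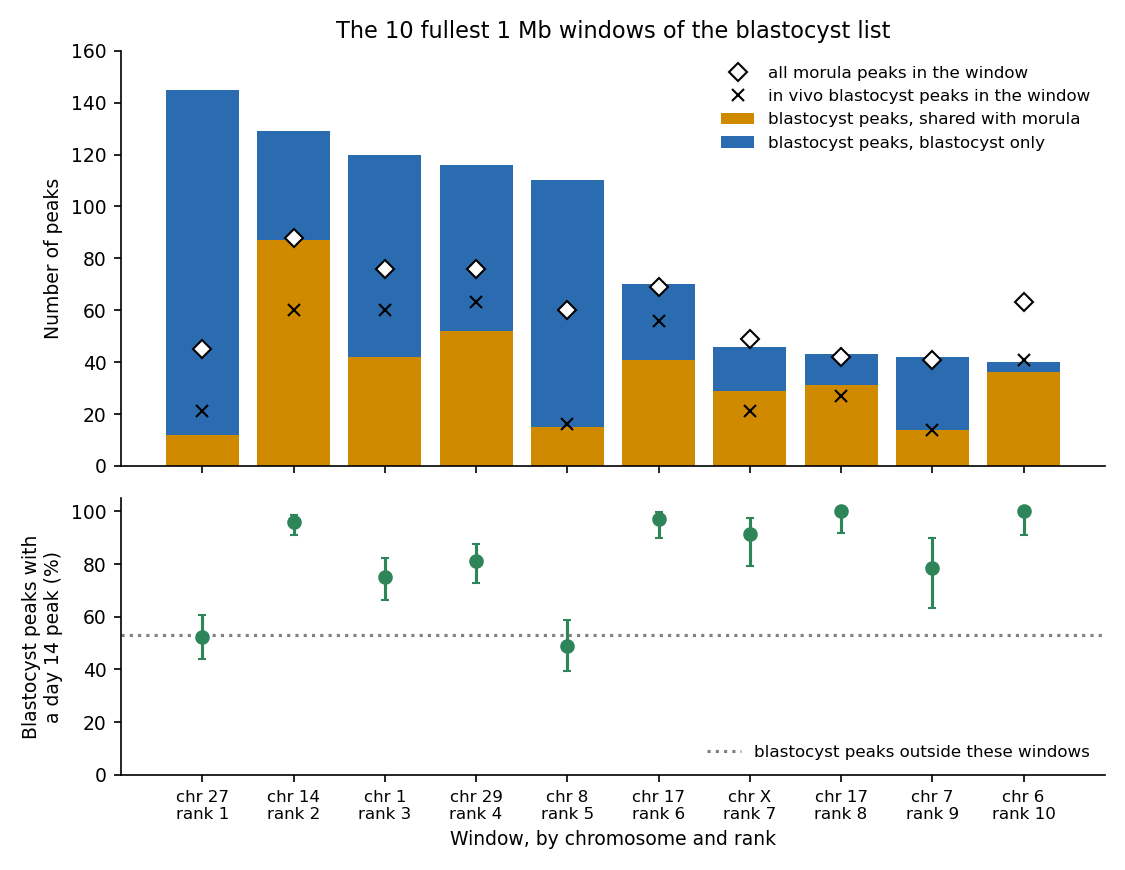
Upper panel, number of blastocyst peaks (vertical axis) in the 10 fullest 1 Mb windows of the blastocyst list (horizontal axis, by chromosome and rank), divided into shared and blastocyst only, with diamonds for all morula peaks and crosses for in vivo blastocyst peaks of the window. Lower panel, share of those blastocyst peaks with a day 14 peak, with 95% exact intervals and a dotted line at the 53.0% found outside the windows: the windows of rank 1 and 5, with 8.28% and 13.6% shared, stand at 52.4% and 49.1%, and the others lie higher.

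Leaving out the 10 windows changed the level of the blastocyst values and kept their order. Outside them 756 of 2536 blastocyst peaks (29.8%, interval 28.0% to 31.6%) were shared, against 359 of 861 (41.7%, interval 38.4% to 45.1%) inside. Median widths outside were 368 bp for shared and 189.5 bp for blastocyst only peaks, and inside 523 and 245.5 bp. At day 14 shared peaks stood at 91.9% outside and 97.5% inside, and blastocyst only peaks at 36.5% (interval 34.3% to 38.8%) outside and 62.5% (interval 58.2% to 66.8%) inside. Weighted to the widths of shared peaks of the same part, blastocyst only peaks stood at 58.1% outside and 74.3% inside. Those widths differ between the parts, so inside and outside were not compared at equal widths. Recurrence in the in vivo blastocyst list was 25.9% outside and 44.4% inside.

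For the morula the 10 fullest windows made almost no difference to the whole. Outside them the share with a blastocyst peak was 1.14% and the day 14 share of morula only peaks 45.0%, against 45.2% over the list. Inside them 60.0% (interval 57.0% to 62.9%) of the peaks had a day 14 peak and 52.6% an in vivo morula peak. The fullest morula window, on chromosome 5 between 57 and 58 Mb, held 147 peaks with a median width of 698 bp, 92 of them (62.6%) open at day 14. Day 14 shares in the 10 windows ran from 35.6%, on chromosome 5 between 101 and 102 Mb, to 85.0%, on chromosome 18 between 56 and 57 Mb. The other 7 lay on chromosomes 7 (45 to 46 Mb), 6 (93 to 94 and 16 to 17 Mb), 11 (29 to 30 Mb), 5 (75 to 76 Mb), 10 (65 to 66 Mb) and 14 (63 to 64 Mb), with 100 to 117 peaks each.

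Chromosomes differed little in morula density and much in blastocyst density. Relative to the whole list, morula density ran from 0.743 times on chromosome 26 to 1.27 times on chromosome 7. Blastocyst density ran from 0.273 times on chromosome 18 to 3.40 times on chromosome 27, and without the 10 windows from 0.364 times on chromosome 18 to 2.25 times on X. On X only 1 window was left out. Chromosomes 27, 29, 14 and 17 came down to 1.22, 0.993, 1.10 and 1.14 times once all 10 windows were left out. Chromosome 8 came down from 1.98 to 1.65 times, with 1.83 times for blastocyst only and 1.22 times for shared peaks outside the windows.

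Chromosomes 18, 19 and 25, which are gene-dense in cattle, were among those with few blastocyst peaks, at 0.273, 0.391 and 0.529 times the density of the whole list. Chromosomes 22 (0.281), 20 (0.381), 23 (0.388), 26 (0.440) and 12 (0.473) were in the same range. Together chromosomes 18, 19 and 25 held 84 blastocyst peaks, a density 0.365 times that found elsewhere, against 0.942 times for the morula list. Without the 10 windows, none of which lies on them, the ratio was 0.491. It was then 0.675 for the 34 shared and 0.414 for the 50 blastocyst only peaks, and for shared peaks chromosome 19 alone stood at 0.931 times the whole list.

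The X chromosome stood apart in how much of it was shared. Of the 364 blastocyst peaks on X, 230 (63.2%, interval 58.0% to 68.2%) had a morula peak, against 885 of 3033 (29.2%, interval 27.6% to 30.8%) on the autosomes. Autosomes ran from 9.09% on chromosome 12 to 53.1% on chromosome 19, and X lay above all 29, although the intervals of chromosome 19 (34.7% to 70.9%, 32 peaks) and chromosome 23 (26.6% to 66.6%, 26 peaks) included the X value. Weighting autosomal peaks to the widths of X peaks raised their share to 34.9%. Outside the 10 windows X stood at 63.2% and the autosomes at 25.02%. Only 1 of the 10 lies on X, between 37 and 38 Mb with 46 peaks, so other dense windows of X stayed in. In vivo, 52.0% (interval 45.6% to 58.5%) of 244 X peaks and 32.2% (interval 30.3% to 34.2%) of 2343 autosomal blastocyst peaks had an in vivo morula peak.

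X peaks of the blastocyst were spread over 56 of 149 windows, with 155 of the 364 in the 5 fullest. X held 20.6% of shared blastocyst peaks and 5.87% of blastocyst only peaks, against 4.10% of morula only peaks. Seen from the morula, 182 of 3785 X peaks (4.81%, interval 4.15% to 5.54%) were shared, against 0.962% on the autosomes, where single chromosomes ran from 0.184% (chromosome 12) to 4.20% (chromosome 29). Day 14 peaks were sparse on X, at 0.183 times the mean density of that list. Even so, 86.1% of shared (interval 80.9% to 90.3%) and 62.7% of blastocyst only peaks on X (interval 53.9% to 70.9%) had a day 14 peak, against 95.7% and 41.0% on the autosomes. Morula only peaks stood at 27.4% on X and 46.0% on the autosomes. Shared blastocyst and morula only peaks were thus lower on X, and blastocyst only peaks were higher. Median widths on X and the autosomes were 327.5 and 441 bp for shared blastocyst and 235 and 196.5 bp for blastocyst only peaks. For morula only peaks they were 539 and 524 bp, and these day 14 shares were not weighted to equal widths.

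**Figure D5:**
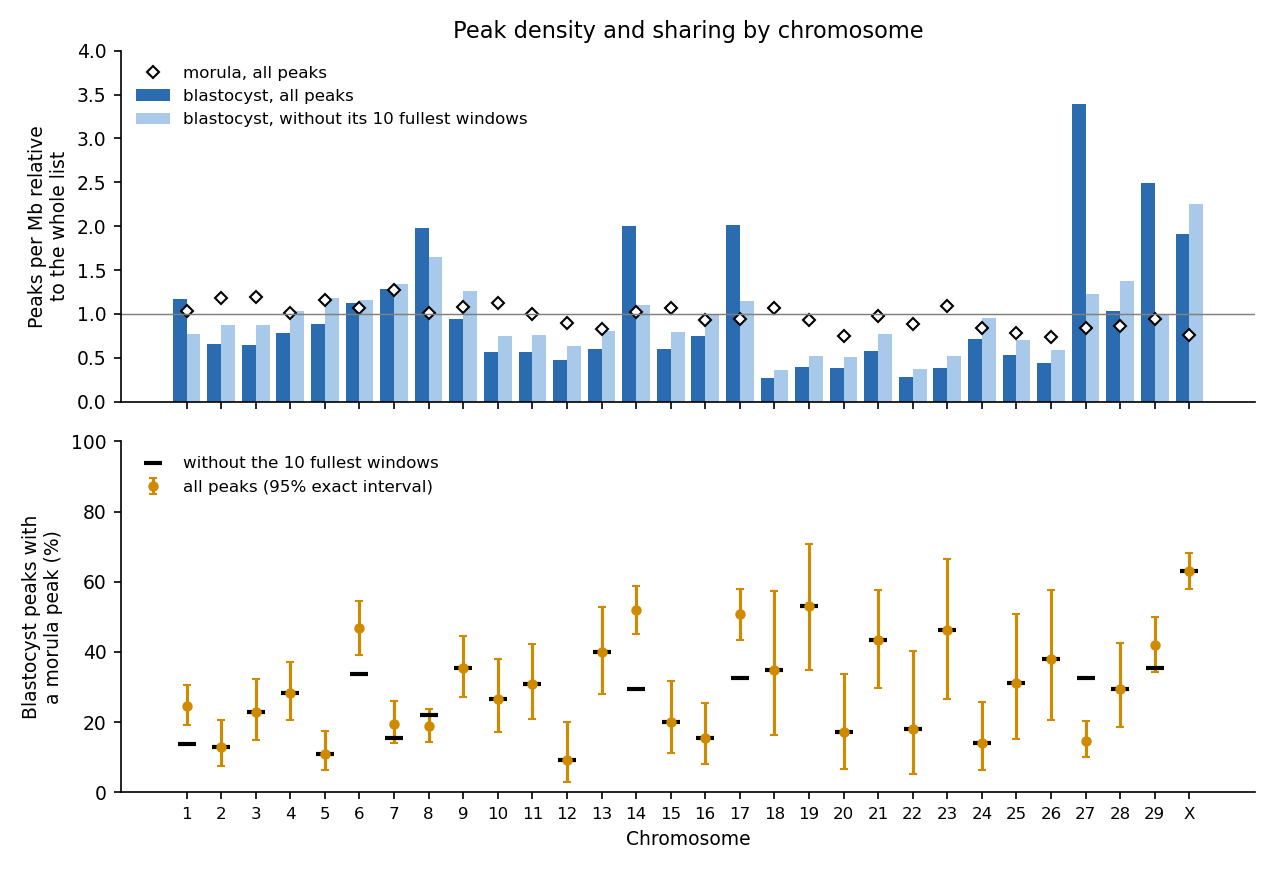
Upper panel, peaks per Mb relative to the whole list (vertical axis) by chromosome (horizontal axis), with dark bars for all blastocyst peaks, light bars for those outside the 10 fullest windows and diamonds for the morula. Lower panel, share of blastocyst peaks with a morula peak, with 95% exact intervals for all peaks and black dashes without the windows: X stands at 63.2% with and without them, and chromosome 27 goes from 14.7% to 32.7%. Of the 10 windows only 1 lies on X.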

How the data were processed

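ATAC-seq libraries of pooled cattle oocytes and embryos were analysed from 1 deposited peak list per stage. The deposited lists give other values than counts or scores: chromosome, start and end of each peak, as the authors merged them. The tools named per the submitters' processing notes are HOMER, MACS2, Bowtie2 2.3 and bedtools, and the build is UMD3.1. Order, thresholds, the merging rule and any shift for the transposase cut were not given in the sources used here, and a different caller setting could change list length and peak width.

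Starts were read as counted from 0 and are given from 1, so a start could be off by 1 base. Overlaps (1 bp or more), widths, windows of 1 Mb, presence in other lists and exact 95% intervals were computed with Python 3.11.15, numpy 2.4.6, pandas 2.3.3 and scipy 1.17.1, and drawn with matplotlib 3.10.9. The code was tested on simulated intervals, and 6 of 6 overlap counts equalled those of bedtools 2.31.1. Width-weighted shares used deciles of width. Regions named are the 3 widest of each class, the 3 widest of each class also found in vivo at the same stage and in neither list of the other stage, the 3 widest shared regions without a day 14 peak, and the 10 fullest windows of each list. The members, windows and named rules were chosen with earlier results of these data known. Alternatives were a minimum width, joined peaks, widened peaks, 50% overlap, equal list length, other windows, and leaving out the fullest windows or oocyte peaks. Gene annotation and peak sequence were not used here, since the gene table at hand is of another build. With 1 list per stage no test was run.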

Additional observations from a re-analysis of the deposited data

How the results depend on the processing

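Across 8 results and 12 alternatives, 65 values were computed: 27 moved by less than the counting interval (for the ratio of peak numbers, by less than 1.5 times), 38 moved further, and 0 reversed direction. The cause of each shift was not tested. The autosome setting was chosen after seeing the data. The ratio of peak numbers (26.2) ran from 22.0 to 34.8. The share of blastocyst peaks with a morula peak (32.8%) was 36.6% for peaks of at least 161 bp, 29.8% without the 10 fullest windows, 22.8% without peaks in an oocyte list, 17.6% with 50% overlap, 34.9% with peaks widened by 250 bp, 3.71% against the widest morula peaks and 29.2% on autosomes. The share of morula peaks with a blastocyst peak (1.13%) was, in the same terms, 0.767% without the windows, 0.698% without oocyte peaks, 0.673% with 50% overlap, 2.09% among the widest, 1.55% in vivo and 0.962% on autosomes. The day 14 difference between shared and blastocyst only peaks (51.5 percentage points) was 54.2 with peaks closer than 500 bp joined, 55.4 without the windows, 35.0 against the widest morula peaks, 30.1 at shared widths, 63.4 in vivo and 54.7 on autosomes. That between shared and morula only peaks (49.6 percentage points) was 52.0 from 161 bp, 47.8 without oocyte peaks, 61.1 with 50% overlap, 46.0 when widened, 18.2 among the widest, 47.5 at shared widths and 39.4 in vivo. The share of blastocyst peaks in the 10 fullest windows (25.3%) was 27.5% from 161 bp, 21.6% when joined, 8.15% in the next 10 windows, 18.8% in the 5 fullest windows of 2 Mb, 15.7% in vivo and 28.1% on autosomes. For the morula (1.23%) it was 1.14% when joined, 1.08% in the next 10 morula windows, 1.04% in 2 Mb windows and 1.55% in vivo. The excess of X among blastocyst over morula peaks (6.46 percentage points) was 8.31 without the windows and 5.16 without oocyte peaks. No replicate was left out, since each list merges its libraries. No paired analysis was possible because the lists hold no values per library. Depth is unknown, and absence from a list does not show that a region was closed.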
